A study of Mus musculus with 20 samples.

Results

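Egf, Umod, Kcnj1 and Ptger3 are 4 genes of the thick ascending limb and the distal tubule of the kidney. They were followed in kidney RNA of Hyp mice and normal mice on low phosphate or control diet. They are 4 of 8251 genes that the platform annotation gives to a probe set of their own. All probe sets that it assigns to one of them and to no other were taken, 7 of 12422, with 1 for Umod and 2 each for Egf, Kcnj1 and Ptger3. An intensity filter kept 5 of the 7. The dimmer probe sets of Egf (mean intensity 32.1 over 20 arrays) and Ptger3 (mean 30.7) fell below its limit of 79.44 and were not tested.

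The 4 groups crossed genotype with diet, Hyp kidneys under low phosphate, Hyp kidneys under control feeding, normal kidneys under low phosphate and normal kidneys under control feeding, with 5 arrays each. Every array was hybridised with kidney RNA pooled from 3 mice of the strain C57BL/6J. Males supplied 12 arrays and females 8, and the diets were fed for 5 days (12 arrays) or 3 days (8 arrays). Within each group, 2 arrays came from males at 5 days, and 1 each came from females at 5 days, males at 3 days and females at 3 days. Hyp mice carry a mutation of Phex on the X chromosome and serve to model human X-linked hypophosphatemia. The labels do not say whether Hyp females carried one or both mutant copies, nor how old the mice were. Phex itself lay below the intensity filter (mean 42.2).

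Values are signal intensities on a linear scale, in the authors' scaled units. Differences are fitted differences of log2(intensity + 38) and carry a standard error (SE) from limma. A comparison passed where its p-value, adjusted by the Benjamini-Hochberg method over 8695 probe sets, lay below 0.05. Precision is limited by the number of arrays. The deposited values come without a background, so signal over background cannot be given. In whole kidney RNA, fewer cells of a type and less RNA per cell cannot be told apart.

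The thick ascending limb reabsorbs salt through the cotransporter NKCC2, encoded by Slc12a1, and depends on potassium leaving the cell into the lumen through the channel ROMK. Kcnj1 encodes ROMK, which also lies in the distal nephron and collecting duct. Umod encodes uromodulin, the glycoprotein that the thick ascending limb sheds into urine. Egf encodes the precursor of epidermal growth factor, which in mouse kidney is made mainly in the distal convoluted tubule and thick ascending limb. Ptger3 encodes the prostaglandin E2 receptor EP3, a receptor that lowers cyclic AMP and is found in the thick ascending limb and collecting duct. Slc12a1 was bright on every array (7145.7 to 11292.7).

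In the RefSeq annotation of build GRCm38.p6, Egf lies on the minus strand at chr3:129677574-129755322 and Umod on the minus strand at chr7:119462708-119479262. Kcnj1 lies on the plus strand at chr9:32372418-32399197 and Ptger3 on the plus strand at chr3:157566821-157644758. The sources used here do not give the exons that the probes match. The 250 bases before the start of 1 RefSeq transcript of each gene are shown, since the brighter Kcnj1 probe set and Ptger3 varied together. Letters run 5′ to 3′ on the gene's strand, and capitals mark GTTAAT, a half-site of the HNF1 factors of kidney epithelium.
Egf, chr3:129755323-129755572: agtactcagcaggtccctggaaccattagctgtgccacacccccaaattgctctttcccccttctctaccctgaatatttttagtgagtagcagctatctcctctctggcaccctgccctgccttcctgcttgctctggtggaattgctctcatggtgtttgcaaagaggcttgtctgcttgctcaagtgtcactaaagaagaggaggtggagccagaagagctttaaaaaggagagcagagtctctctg
Umod, chr7:119479263-119479512: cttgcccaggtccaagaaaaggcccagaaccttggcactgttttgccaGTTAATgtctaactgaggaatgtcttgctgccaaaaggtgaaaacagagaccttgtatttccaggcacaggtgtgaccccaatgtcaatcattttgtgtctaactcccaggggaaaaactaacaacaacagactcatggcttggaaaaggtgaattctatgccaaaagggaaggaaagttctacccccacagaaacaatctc
Kcnj1, chr9:32393735-32393984: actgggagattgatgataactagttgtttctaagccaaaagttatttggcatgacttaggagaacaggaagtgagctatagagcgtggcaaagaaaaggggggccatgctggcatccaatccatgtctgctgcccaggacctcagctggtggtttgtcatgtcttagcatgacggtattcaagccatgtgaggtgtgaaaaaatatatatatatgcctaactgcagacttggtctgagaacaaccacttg
Ptger3, chr3:157566626-157566875: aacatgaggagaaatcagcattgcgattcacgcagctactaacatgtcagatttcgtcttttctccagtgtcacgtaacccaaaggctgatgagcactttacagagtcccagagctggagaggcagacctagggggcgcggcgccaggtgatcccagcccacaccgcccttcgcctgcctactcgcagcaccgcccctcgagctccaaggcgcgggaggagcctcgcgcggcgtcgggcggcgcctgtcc
The Kcnj1 window belongs to a transcript that starts 21567 bases inside the annotated gene, and the Ptger3 window to one that starts 55 bases inside. The letters were searched on both strands, and over 32851 windows of 250 bases GTTAAT occurs in 6.43% and its variant GTTAAC in 2.56%. The TATA box TATAAA occurs in 12.4% and the nuclear receptor half-site AAGGTCA in 4.08%. The only match in these windows was the GTTAAT upstream of Umod, and a match of letters is a description, not a site. G and C made up 62.0% of the Ptger3 window, 50.4% of the Egf window, 45.2% of the Umod window and 44.8% of the Kcnj1 window, beside a median of 52.4% over all windows.

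The 20 arrays differed in quality. The female arrays at 5 days, numbered 05 to 08 with 1 array per group, correlated least with the rest (median Spearman 0.895 to 0.934) and had actin 3′ to 5′ intensity ratios of 1.74 to 2.61. On the other 16 arrays these values were 0.943 to 0.969 and 1.22 to 1.98. Calls on members and listed genes that ended without arrays 05 to 08 are given with and without them. By the titles' numbers the arrays fall into 6 runs, 01 to 04, 05 to 08, 09 and 10 (both Hyp), 11 to 14, 15 to 18, and 19 and 20 (both normal). What a run stands for is not stated.

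By its brighter probe set Kcnj1 was higher in Hyp kidneys averaged over diets, while its dimmer probe set did not pass. The brighter Kcnj1 probe set read 2468.6, 2630.8, 2130, 2656.3 and 2844.4 in Hyp mice on low phosphate, and 1734.3, 1996.2, 2055.1, 2011 and 2248.5 in normal mice on low phosphate. On control diet it read 2699.7, 2386, 3324, 2772.1 and 2983.2 in Hyp mice, and 2058.9, 2046.8, 2401.1, 2280.7 and 2452 in normal mice. In these lists, and in those below, the order is 2 male arrays at 5 days, the female array at 5 days, the male array at 3 days and the female array at 3 days. On low phosphate the lowest Hyp array, the female one at 5 days, lay below the highest normal array, and on control diet the lowest Hyp array lay below 2 normal arrays. All other Hyp arrays lay above all normal arrays on the same diet.

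Averaged over diets, the brighter Kcnj1 probe set had 2689.5 ± 329.7 in Hyp mice and 2128 ± 216 in normal mice (SD, n = 10 each). The fitted difference was 0.33 ± 0.069 SE (95% interval 0.18 to 0.48), a 1.26-fold higher level in Hyp mice (limma adjusted p = 0.0237). It stood at rank 68 by p, in a comparison where 1.28% of all probe sets passed (111 of 8695). It was the only one of the 5 tested member probe sets to pass there. On low phosphate alone the difference was 0.33 ± 0.098 SE (limma adjusted p = 0.246) and on control diet alone 0.32 ± 0.098 SE (limma adjusted p = 0.316). On either diet 0 of the 5 passed, and 0.357% of all probe sets passed on low phosphate (limma, 31 probe sets, and 823 with an unadjusted p under 0.05) and 0.253% on control diet (limma, 22, and 743 with an unadjusted p under 0.05). The interaction of genotype and diet was 0.01 (95% interval -0.28 to 0.30).

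Between arrays matched for sex and days, the brighter Kcnj1 probe set was higher in the Hyp array of every pair on both diets. The differences were 0.05 to 0.50 in the 5 pairs on low phosphate and 0.22 to 0.46 in the 5 on control diet. One male pair on each diet joins an array of the run 09 and 10 with an array of the run 19 and 20. Without these 4 arrays the averaged difference was 0.34 (limma adjusted p = 0.0583), and without arrays 05 to 08 it was 0.35 (adjusted p = 0.0172). With the run of title numbers as a block the adjusted p was 0.0493. Leaving out any 1 of arrays 02, 04, 10, 12, 14 and 15 ended the call (largest adjusted p = 0.0553), with differences between 0.30 and 0.38 over all 20 omissions.

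**Figure D1:**
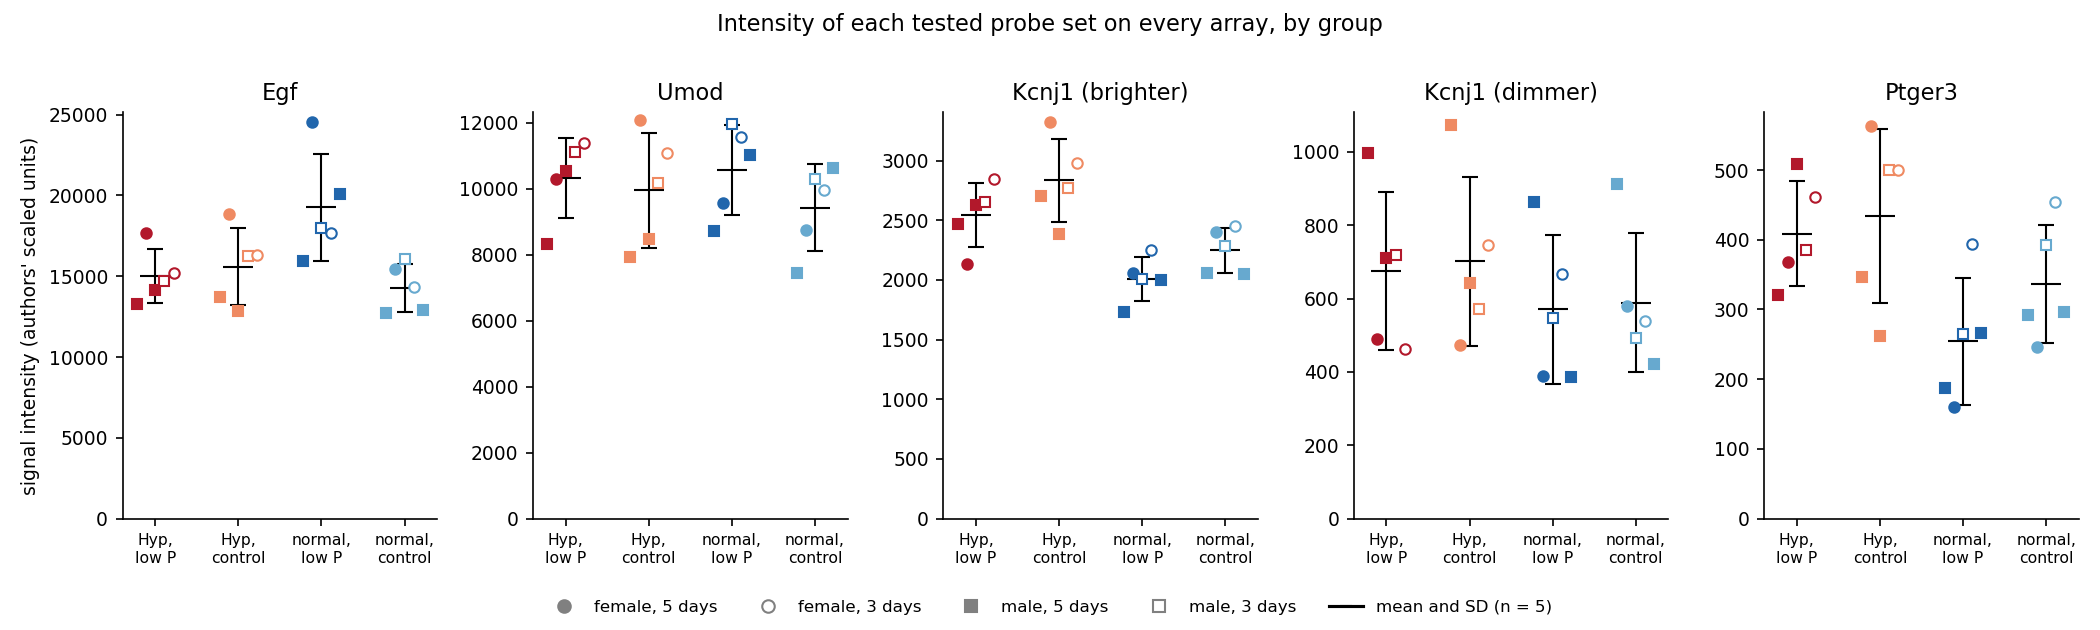
Signal intensity (y axis, authors' scaled units, from 0) of the 5 tested probe sets in each group of 5 arrays (x axis). Circles are female and squares male arrays, filled points 5 days and open points 3 days, and bars give the mean and SD. The brighter Kcnj1 probe set sits between 2130 and 3324 in Hyp mice and between 1734.3 and 2452 in normal mice, and Egf reaches 24545.9 in normal mice on low phosphate.

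The dimmer Kcnj1 probe set did not pass. It read 996.4, 709.7, 491.2, 718.3 and 461.3 in Hyp mice on low phosphate, and 864.8, 385.6, 387.7, 548.4 and 667.2 in normal mice on low phosphate. On control diet it read 1072.6, 643.1, 472.6, 572 and 746.5 in Hyp mice, and 912.1, 422, 579.2, 492.2 and 537.7 in normal mice. The groups overlapped widely. Its highest 4 values, 864.8 to 1072.6, were those of the male arrays 01 to 04, which hold 1 array of each group, and the other 16 arrays ranged from 385.6 to 746.5.

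The averaged genotype difference of the dimmer Kcnj1 probe set was 0.24 ± 0.167 SE (95% interval -0.12 to 0.59, limma adjusted p = 0.518), an interval that holds the value of the brighter one. Over 20 arrays the pair had a Pearson correlation of 0.103 on the log2 scale, and of -0.041 after groups, sex and days were taken out. The mean of the pair differed by 0.28 between Hyp and normal mice (limma adjusted p = 0.198). The dimmer probe set gave -0.003 in females alone and 0.40 in males alone, and the brighter one 0.28 in females and 0.36 in males. The sources used here do not give which transcripts of Kcnj1 either one detects.

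**Figure D2:**
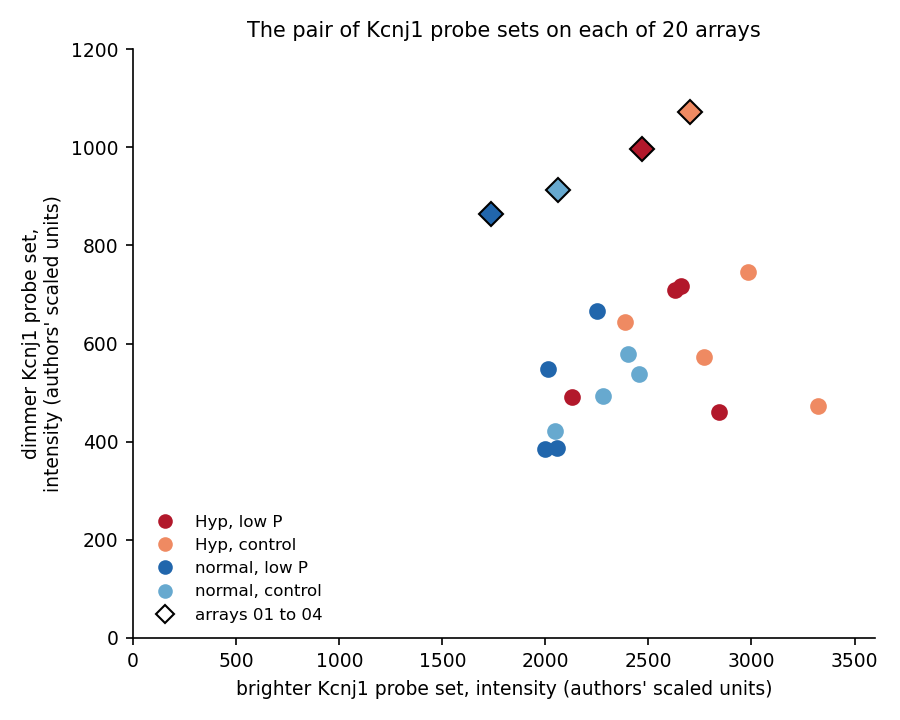
Intensity of the dimmer Kcnj1 probe set (y axis) against the brighter one (x axis), in the authors' scaled units, with 1 point for each of 20 arrays coloured by group. The diamonds, arrays 01 to 04, lie above all others on the y axis (864.8 to 1072.6 against 385.6 to 746.5), while Hyp points lie mostly to the right of normal points.

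Ptger3 differed in the same direction as Kcnj1 and did not pass. Its brighter probe set read 320.8, 508.8, 368.1, 384.8 and 460.8 in Hyp mice on low phosphate, and 186.9, 266.3, 160.3, 265.5 and 393.2 in normal mice on low phosphate. On control diet it read 346.2, 262.6, 562.5, 500.7 and 500.1 in Hyp mice, and 292.2, 297, 245.7, 392.7 and 454 in normal mice. On low phosphate only the female normal array at 3 days reached into the Hyp range. On control diet 1 male Hyp array at 5 days, at 262.6, lay below 4 of the 5 normal arrays.

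Averaged over diets, Ptger3 had 422 ± 98.2 in Hyp mice and 295 ± 93.4 in normal mice (SD, n = 10 each). The difference was 0.48 ± 0.129 SE (95% interval 0.21 to 0.75, limma unadjusted p = 0.00155, adjusted p = 0.0864), at rank 156 of 8695. It was 0.65 ± 0.182 SE on low phosphate (limma adjusted p = 0.215) and 0.32 ± 0.182 SE on control diet (limma adjusted p = 0.647). The interaction of genotype and diet was 0.33 (95% interval -0.21 to 0.87). Matched pairs were higher in the Hyp array in 5 of 5 pairs on low phosphate (0.21 to 1.03) and in 4 of 5 on control diet (-0.16 to 1.08), and the largest value on each diet came from arrays 05 to 08. Without those 4 arrays the averaged difference was 0.34 (limma adjusted p = 0.266).

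The dimmer Ptger3 probe set stayed near the floor of the arrays, with 28.98 ± 23.9 in Hyp mice and 32.4 ± 15.5 in normal mice (SD, n = 10 each). The other receptors for prostaglandin E2 on the array, Ptger1, Ptger2 and Ptger4, lay below the intensity filter, with means of 47.4, 31.6 and 74.5. So did Ptgs2, the inducible cyclooxygenase that starts prostaglandin synthesis (mean 30.7).

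Egf showed the largest diet difference among the members, in normal mice, and it did not pass. It read 13263.7, 14143.3, 17668.6, 14735.2 and 15188.5 in Hyp mice on low phosphate, and 13698.2, 12868.4, 18876.5, 16252.2 and 16303.8 in Hyp mice on control diet. In normal mice it read 15956.8, 20098.2, 24545.9, 17980.6 and 17704 on low phosphate, and 12736.8, 12903.4, 15441.8, 16056 and 14302.7 on control diet. In Hyp mice the diet groups overlapped throughout. In normal mice only the lowest array on low phosphate reached into the range of the control diet, by a narrow margin.

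In Hyp mice Egf averaged 14999.9 ± 1656 on low phosphate and 15599.8 ± 2384 on control diet (SD, n = 5 each), a difference of -0.05 ± 0.094 SE (limma adjusted p = 0.998). Egf averaged 19257 ± 3302 in normal mice on low phosphate and 14288 ± 1482 in normal mice on control diet (SD, n = 5 each), a difference of 0.42 ± 0.094 SE (95% interval 0.22 to 0.62). The limma p in normal mice was 0.000346 before adjustment and 0.0905 after it, at rank 32 in a comparison where 0.184% of probe sets passed (16 of 8695). None of the 5 tested member probe sets passed for diet in Hyp mice, where 0.15% of all probe sets did (limma, 13, and 399 with an unadjusted p under 0.05), nor for diet in normal mice (limma, 744 of all probe sets with an unadjusted p under 0.05). Averaged over genotypes 0 of the 5 passed as well, beside 0.472% of all probe sets (limma, 41, and 848 with an unadjusted p under 0.05).

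The diet difference of Egf was smaller in Hyp than in normal mice by 0.47 ± 0.133 SE (95% interval of the interaction -0.75 to -0.19, limma unadjusted p = 0.0026, rank 21, adjusted p = 1). In this comparison 0 of the 5 member probe sets passed, beside 0.046% of all (limma, 4 of 8695, and 281 with an unadjusted p under 0.05). On low phosphate Egf was at -0.35 ± 0.094 SE in Hyp relative to normal mice (limma adjusted p = 0.18) and on control diet at 0.12 ± 0.094 SE (limma adjusted p = 0.741). These 4 differences share groups, so they are not separate results. Matched pairs were higher on low phosphate in 1 of 5 in Hyp mice (-0.14 to 0.14) and in 5 of 5 in normal mice (0.16 to 0.67).

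The call on Egf in normal mice turned on the method. The adjusted p fell below the threshold with a filter at the median intensity (0.0495), with trended and robust variances (0.0172), with the run of title numbers as a block (0.0342) and with array weights (0.0444). It was 0.358 after quantile normalization, where the difference was 0.27, and 0.432 without arrays 05 to 08, where it was 0.36. The dimmer Egf probe set had 30.6 ± 14.3 in normal mice on low phosphate and 34.2 ± 29.1 in normal mice on control diet (SD, n = 5 each), below the filter.

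**Figure D3:**
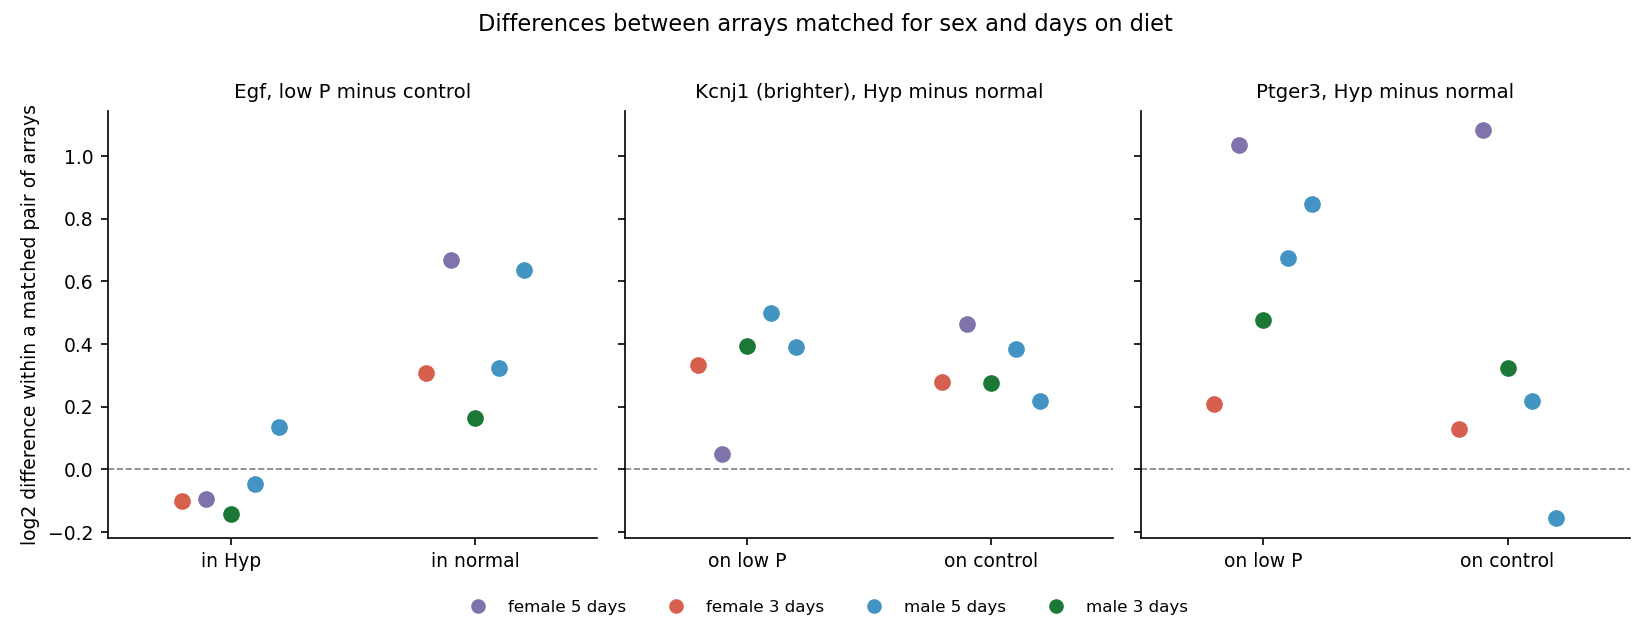
Log2 difference within pairs of arrays matched for sex and days (y axis), coloured by sex and days, with 1 point per pair and 5 pairs in each column. Egf pairs span -0.14 to 0.14 in Hyp and 0.16 to 0.67 in normal mice. Pairs of the brighter Kcnj1 probe set all lie above 0, and Ptger3 pairs reach 1.08.

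Umod did not pass for genotype or diet. It read 8312.6, 10544.3, 10297.6, 11106.7 and 11381.4 in Hyp mice on low phosphate, and 7938.2, 8486.9, 12084.3, 10172.9 and 11099.5 in Hyp mice on control diet. In normal mice it read 8731.9, 11015, 9583.3, 11968.9 and 11582.9 on low phosphate, and 7433.9, 10643.5, 8764.8, 10301.4 and 9959.6 on control diet. All 4 groups overlapped, and arrays 01 to 04 held the lowest value of each group.

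The averaged genotype difference of Umod was 0.02 ± 0.086 SE (95% interval -0.16 to 0.20, limma adjusted p = 0.927). The diet difference was 0.06 in Hyp mice (95% interval -0.19 to 0.32) and 0.17 in normal mice (95% interval -0.09 to 0.42, limma adjusted p = 0.777). Within matched pairs Umod was higher on low phosphate in 4 of 5 pairs of Hyp mice and in 5 of 5 pairs of normal mice, in the normal mice by 0.05 to 0.23. For the brighter Kcnj1 probe set the diet differences were negative, at -0.15 in Hyp mice and -0.16 in normal mice (95% intervals -0.36 to 0.06 and -0.37 to 0.05). The dimmer Kcnj1 probe set was higher on low phosphate in 3 of 5 pairs of Hyp mice and in 2 of 5 pairs of normal mice. For Ptger3 the diet differences were -0.05 in Hyp mice (-0.44 to 0.33) and -0.38 in normal mice (-0.76 to 0.003, limma adjusted p = 0.582), with 5 of 5 normal pairs lower on low phosphate.

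**Figure D4:**
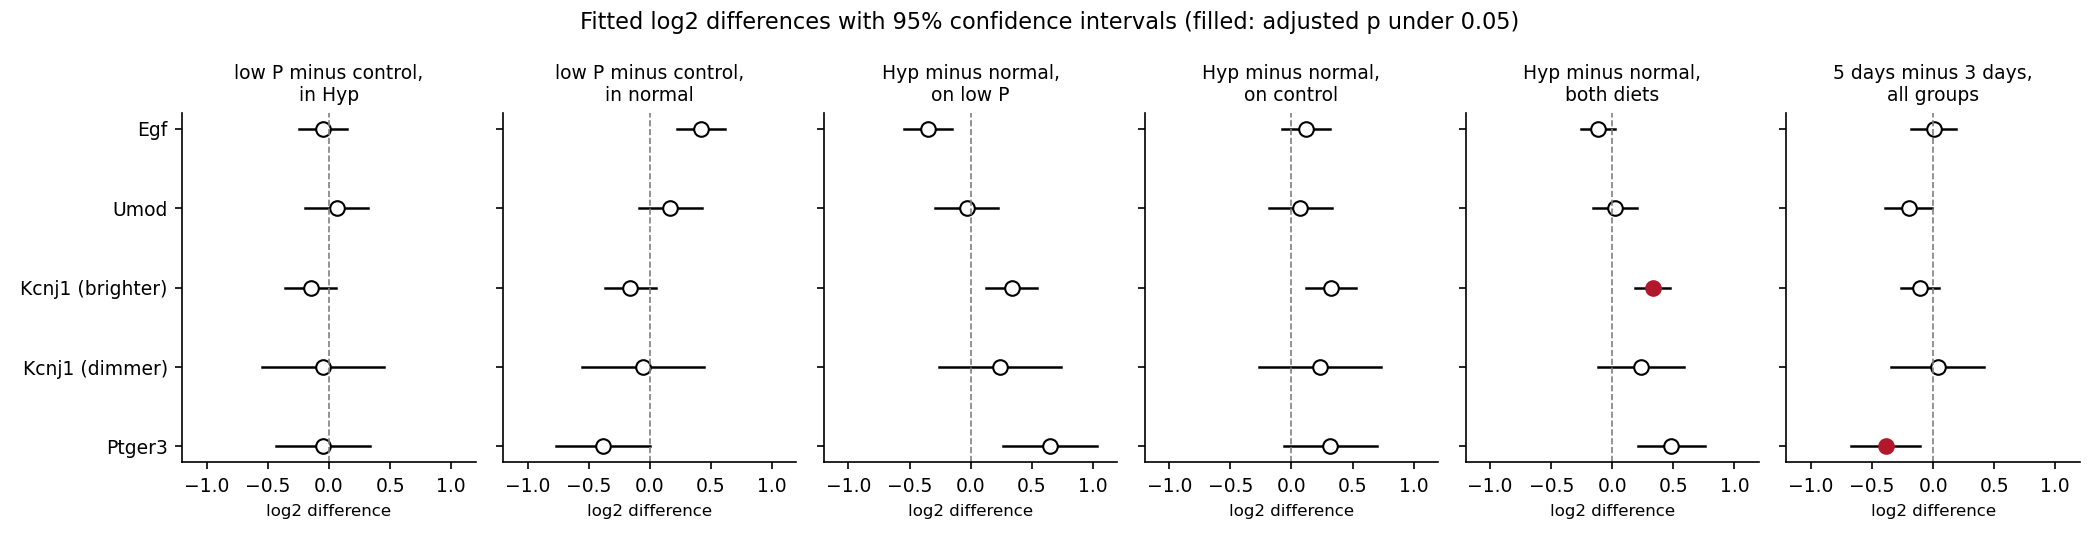
Fitted log2 differences (x axis) of the 5 tested probe sets (rows) in 6 comparisons (panels), with 95% confidence intervals as lines. Filled points passed an adjusted p of 0.05. They are the brighter Kcnj1 probe set between genotypes over both diets (0.33) and Ptger3 between durations (-0.39).

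Ptger3 was lower at 5 days on the diets than at 3 days. Over the 12 arrays at 5 days its brighter probe set ranged from 160.3 to 562.5 (median 294.6), and over the 8 arrays at 3 days from 265.5 to 500.7 (median 423.6). The means were 318 ± 118 at 5 days (SD, n = 12) and 419 ± 77.7 at 3 days (SD, n = 8), a fitted difference of -0.39 ± 0.133 SE (95% interval -0.67 to -0.11, limma adjusted p = 0.0341). It was the only one of the 5 tested member probe sets to pass, in a comparison where 32% of all probe sets did (2785 of 8695), 15.8% as lower at 5 days. A call in this comparison is therefore common among all probe sets.

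Each run of title numbers holds 1 duration, and arrays 05 to 08 are 4 of the 12 at 5 days. Without these 4 the Ptger3 difference was -0.30 (limma adjusted p = 0.272) and with the run as a random block it was -0.37 (limma adjusted p = 0.36). The count over all probe sets then was 26 and 2. In females alone the difference was -0.51 (adjusted p = 0.115) and in males alone -0.30 (adjusted p = 0.366). By group the difference between durations was -0.08 in Hyp mice on low phosphate, -0.37 in Hyp mice on control diet, -0.58 in normal mice on low phosphate and -0.53 in normal mice on control diet. None of the 5 member probe sets passed in any single group, nor did any of the 8695 probe sets (limma, with 494 to 1920 at an unadjusted p under 0.05).

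Umod was at 9486 ± 1423 at 5 days (SD, n = 12) and 10947 ± 725 at 3 days (SD, n = 8), a difference of -0.20 ± 0.090 SE (95% interval -0.39 to -0.01, limma adjusted p = 0.0934). Its 12 arrays at 5 days ranged from 7433.9 to 12084.3, around the 9959.6 to 11968.9 of the 8 arrays at 3 days. Egf differed between durations by 0.004 ± 0.086 SE, with a wider range at 5 days (12736.8 to 24545.9) than at 3 days (14302.7 to 17980.6). Kcnj1 differed by -0.11 ± 0.072 SE for the brighter and 0.04 ± 0.182 SE for the dimmer probe set.

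No member passed a test of whether its diet or genotype difference changed with duration or sex. For diet by days the interaction was 0.21 for Egf (95% interval -0.06 to 0.49) and lay between -0.13 and 0.12 for the other 4 probe sets. For genotype by days the widest value was 0.33 for Ptger3 (95% interval -0.21 to 0.88). In these 2 comparisons, and in those of diet by sex and genotype by sex, 0 of 8695 probe sets passed (limma, 0% each, with 291, 474, 302 and 558 at an unadjusted p under 0.05). Between females and males Egf differed by 0.21 ± 0.086 SE (limma adjusted p = 0.0968), with 17504 ± 3226 in females (SD, n = 8) and 15058 ± 2296 in males (SD, n = 12). Arrays 05 to 08, the female arrays at 5 days, read 15441.8 to 24545.9, and the male arrays at 5 days 12736.8 to 20098.2. At 5 days alone the difference was 0.40. At 3 days the sexes overlapped, with 14302.7 to 17704 in females and 14735.2 to 17980.6 in males. None of the member probe sets passed for sex, beside 15.1% of all (limma, 1316, and 2847 with an unadjusted p under 0.05).

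**Figure D5:**
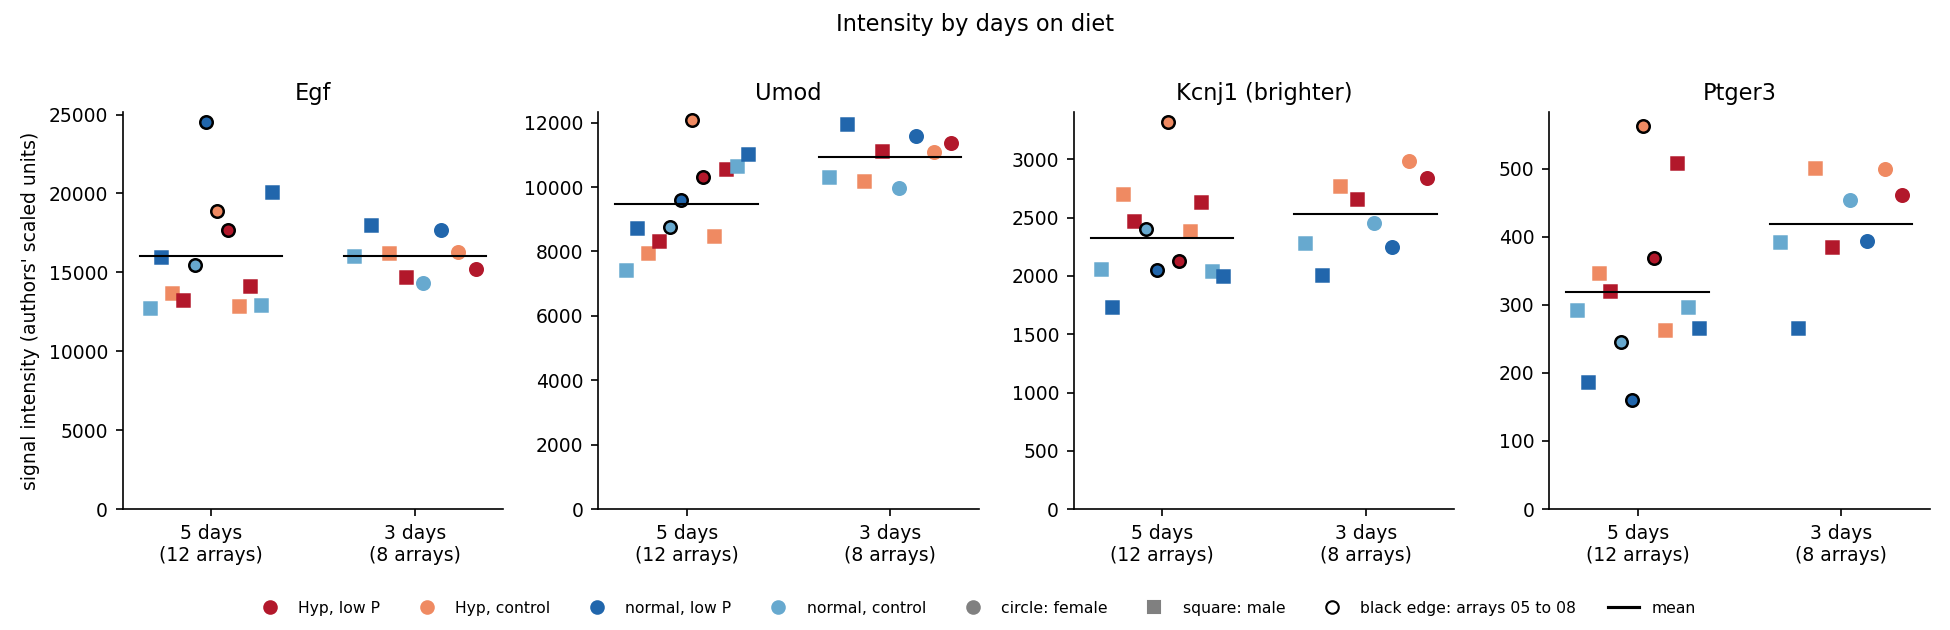
Intensity (y axis, authors' scaled units, from 0) of Egf, Umod, the brighter Kcnj1 probe set and Ptger3 on arrays at 5 days and 3 days (x axis), with 1 point per array, coloured by group. Lines are means, circles female and squares male arrays, and black edges mark arrays 05 to 08. Ptger3 has means of 318 at 5 days and 419 at 3 days with overlapping ranges.

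Over the 20 arrays, which share the 4 groups, the runs and the scaling, the brighter Kcnj1 probe set and Ptger3 had a Pearson correlation of 0.794 on the log2 scale and of 0.499 after groups, sex and days were taken out. For the dimmer Kcnj1 probe set and Ptger3 these values were 0.038 and -0.206. By its brighter probe set, Kcnj1 stood at rank 4 of 6432 other genes in likeness to Ptger3. It came after Actg1 (0.845), Pros1 (0.826) and Hpgd (0.808), and before Adm (0.792). Hpgd encodes the dehydrogenase that inactivates prostaglandins. Its level was 315 ± 51.3 in Hyp mice and 272 ± 67.7 in normal mice (SD, n = 10 each), a difference of 0.21 (limma adjusted p = 0.376). Most alike to Kcnj1 were Plscr1 (0.873), Bex4 (0.854), Anxa6 (0.848), Dusp6 (0.841) and Pla2g7 (0.837). Dusp6 encodes a phosphatase of the kinase ERK.

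Most alike to Egf were Rps28 (0.846), Snhg1 (0.825), Ankhd1 (0.801), Ncoa4 (0.776) and Slc25a36 (0.772). Most alike to Umod were Ctrl (0.891), Plscr2 (0.854), Cdadc1 (0.848), Serinc1 (0.839) and Sat1 (0.833). After groups, sex and days were taken out, the lists were led by Rps10 for Egf (0.94), Cycs for Umod (0.939), Gdf10 for Kcnj1 (0.88) and Prkar1a for Ptger3 (0.867). Among the members, Egf and Umod correlated at 0.482 on levels, Umod and Ptger3 at 0.454, and Egf and Ptger3 at -0.22. With groups, sex and days taken out these values were 0.362, 0.639 and 0.373. That of Umod and Ptger3 then lay above the 0.499 of the brighter Kcnj1 probe set and Ptger3. The dimmer Kcnj1 probe set ran against Umod (-0.603) and Egf (-0.585).

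Among other genes of the thick ascending limb, 3 of 20 listed were tested, and 0 passed between Hyp and normal mice. Slc12a1 had 8758 ± 725 in Hyp mice and 8565 ± 1115 in normal mice (SD, n = 10 each), a difference of 0.04 ± 0.078 SE (limma adjusted p = 0.853). Ppp1r1a, an inhibitor of protein phosphatase 1, differed by -0.03 and Foxq1, a forkhead transcription factor, by -0.01. The list's median was -0.01, beside 0.02 over all 6433 genes tested, of which 55 passed as higher and 38 as lower.

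Of the distal convoluted and connecting tubule list, 12 of 27 genes were tested, with 1 higher and 2 lower in Hyp mice averaged over diets. Slc12a3, which encodes the thiazide-sensitive cotransporter NCC, had 6381 ± 1069.6 in Hyp mice and 5015 ± 511 in normal mice (SD, n = 10 each), a difference of 0.33 ± 0.075 SE (limma adjusted p = 0.0345). Without arrays 05 to 08 it was 0.38 (limma adjusted p = 0.058). Calb1, the calcium-binding protein calbindin, differed by -0.71 (limma adjusted p = 6.41e-05) and S100g, its smaller relative, by -1.19 (limma adjusted p = 2.15e-05). On control diet alone Calb1 differed by -0.15 (limma adjusted p = 0.711) and S100g by 0.06 (limma adjusted p = 0.938). For Calb1 the interaction of genotype and diet was -1.13 (limma adjusted p = 0.0028). For S100g it was -2.50 (limma adjusted p = 3.09e-05). Averaged over diets the list's median was -0.01, and 1.28% of all probe sets passed.

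Other inward rectifier channels were compared with Kcnj1, and 0 of the 4 tested passed between genotypes, beside 1.28% of all probe sets. Kcnj15 differed by -0.40 (limma adjusted p = 0.177) and Kcnj8 by 0.21 (limma adjusted p = 0.317). Of the prostaglandin list 1 of 9 tested genes passed, Pla2g4a, the phospholipase that frees arachidonic acid. It had 222 ± 27.1 in Hyp mice and 168 ± 47.0 in normal mice (SD, n = 10 each), a difference of 0.36 (limma adjusted p = 0.0356). With the run as a block it was 0.34 (limma adjusted p = 0.099). Ptges, a synthase of prostaglandin E2, differed by 0.04.

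Around Egf, 1 of 6 tested genes passed between genotypes, beside 1.28% of all probe sets. Errfi1, a feedback inhibitor of the EGF receptor, had 6869 ± 1069 in Hyp mice and 5133 ± 1201 in normal mice (SD, n = 10 each), a difference of 0.43 (limma adjusted p = 0.0224). Egfr, the receptor, differed by -0.11 (limma adjusted p = 0.588) and Hbegf, another ligand of it, by -0.21 (limma adjusted p = 0.441). In normal mice 0 of these 6 passed for diet, beside 0.184% of all probe sets, with Egfr at 0.16 and Erbb3, a related receptor, at 0.25.

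Around Umod, 1 of 8 tested genes passed between genotypes, beside 1.28% of all probe sets. Prss8, the membrane-anchored protease prostasin, had 1579 ± 505 in Hyp mice and 2113 ± 364 in normal mice (SD, n = 10 each), a difference of -0.46 (limma adjusted p = 0.0202). Its difference was -0.38 without arrays 05 to 08 (limma adjusted p = 0.118) and -0.40 with the run as a block (limma adjusted p = 0.0746). Hpn, the protease hepsin that releases uromodulin from the cell surface, differed by -0.05. Between durations 6 of the 8 passed as lower at 5 days. The list median was -0.67 beside 0.003 over all genes, of which 1030 of 6433 passed as higher and 1043 as lower. The genes that passed were the disulfide isomerases Pdia3 (-1.11) and Pdia4 (-1.06), the proteases Hpn (-0.43) and Prss8 (-0.56), Gpaa1 (-1.42) and Pigk (-0.78). Gpaa1 and Pigk belong to the enzyme that attaches the lipid anchor uromodulin carries. Tecta (-0.13) and Hspa5 (-0.08) were lower as well and did not pass. Umod itself differed by -0.20 in this comparison. The summed level of the 8 genes was 6512 to 9638 on arrays 05 to 08, 10160 to 15486 on the other 8 arrays at 5 days and 12766 to 15268 at 3 days. Without arrays 05 to 08 the list median was -0.44 and 0 of the 8 passed between durations (limma, 4 with an unadjusted p under 0.05), beside 4 of all 6433 genes that passed as higher and 11 as lower. With the run as a random block the median was -0.65 and 0 of the 8 passed (limma, 6 with an unadjusted p under 0.05), as did 0 of all genes (limma, 1382 with an unadjusted p under 0.05).

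Markers of other segments and cell types were compared between genotypes as well. Over all 8695 probe sets tested, 55.2% had a positive difference and 1.28% passed. Of 15 proximal tubule genes tested 14 had a negative difference, with a median of -0.11 and 2 that passed as lower in Hyp mice, the transporters Slc2a2 and Slc4a4. Slc2a2 did not pass without arrays 05 to 08 (limma adjusted p = 0.0586), nor Slc4a4 with the run as a block (limma adjusted p = 0.0834). The summed level of the 15 proximal tubule genes was 113760 to 133120 on Hyp arrays and 120200 to 142830 on normal arrays. Of 9 collecting duct genes 1 passed, Slc4a1 (0.35, limma adjusted p = 0.0426, and 0.136 without arrays 05 to 08), with a summed level of 8432 to 12553 on Hyp arrays and 9027 to 11352 on normal arrays. Of 11 macrophage and lymphocyte genes 9 were positive (median 0.22) and of 6 tubular injury genes 5 were positive (median 0.18), with 0 passing in either list. Between durations 4 of the 6 injury genes passed as higher at 5 days and 1, Clu, as lower (median 0.66). The summed level of the 6 was 4976 to 6321 on arrays 05 to 08, 3817 to 5591 on the other 8 arrays at 5 days and 4060.2 to 5075 at 3 days. Without arrays 05 to 08 the median was 0.32, and with the run as a random block it was 0.64, with 0 of the 6 passing in either fit (limma, 2 and 3 with an unadjusted p under 0.05). The part of these markers in the results on Kcnj1 and Ptger3 was not tested.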

How the data were processed

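Kidney RNA, pooled from 3 mice per the labels, was measured on 20 arrays. The deposited table holds 1 linear intensity per probe set, which the authors had scaled to a common mean after trimming 2% at each end (500.254 to 500.309). The sources used here do not name the software. The table held 12488 probe sets, 66 of them controls, and 0 columns were unused. By the platform annotation 10833 of 12422 probe sets name 1 gene, 396 several and 1193 none. Gene numbers matched RefSeq for 10817 of these, with 0 symbols changed. Promoter windows come from RefSeq, build GRCm38.p6.

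log2 was taken after adding 38, the value at the 20th percentile, so differences understate changes of dim genes. The 8695 probe sets with a mean of at least the 30th percentile (79.44) were tested. limma 3.58.1 in R 4.3.3 fitted 4 groups and 4 strata of sex and days on 20 arrays (13 residual degrees of freedom), with 2-sided p-values adjusted within each of 17 comparisons by the Benjamini-Hochberg method at 0.05. Interactions with sex or days had their own terms. The spread behind each p-value is that between pooled samples of 3 mice. A gene with several probe sets was led by the brightest. Lists hold 1 probe set per gene (6433 genes). All 7 member probe sets were named, with the 5 genes most alike to each lead probe set by Pearson correlation, list members past the threshold (otherwise those with the largest differences), and genes tied to a member. The members and lists were chosen with earlier results of these data known. The steps were tested on simulated data. Figures were drawn with matplotlib.

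The alternatives were an offset of 1 or 100, quantile normalization, no filter or one at the median, trended and robust variances, a fit without sex and days, the 2 groups compared alone, each sex and each duration alone, the run of title numbers as a block (random for sex and days), array weights, probe sets averaged per gene, and arrays left out singly, 05 to 08 together, and 09, 10, 19 and 20 together.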

Additional observations from a re-analysis of the deposited data

Results flagged for a closer look

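In 1 of 28 checks of a member probe set within a group of 5 arrays, 1 array stood apart from the others. The dimmer Egf probe set read 92.9 on array 08, from females at 5 days on low phosphate diet, and the next highest of the 5 Hyp arrays on low phosphate read 30.2. The gap was 0.732 of the group's range. On this probe set arrays 05 to 08, with 1 array of each group, read 50.2 to 92.9, and the other 16 arrays 4.4 to 52.4. Chance alone marks about 1 check in 20. This probe set lies below the intensity filter on average, and the brighter Egf probe set read 17668.6 on the same array, the highest of its group.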

How the results depend on the processing

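Over 85 member results and 2892 settings of them, 2852 kept their side of the threshold. The sign turned in 165 settings, all of results that had not passed. Egf, low phosphate minus control diet in normal mice, passed at 0.42 with a filter at the median, with trended and robust variances and with the run of title numbers as a block, and at 0.34 with array weights. Egf between genotypes on low phosphate passed at -0.35 with trended and robust variances, and Kcnj1 there at 0.38 with array weights. The averaged genotype difference of Kcnj1 no longer passed at 0.33 without terms for sex and days (adjusted p = 0.114), at 0.28 in females, 0.36 in males, 0.33 at 5 days, 0.32 at 3 days, 0.34 without arrays 09, 10, 19 and 20, and 0.28 as the mean of its probe sets. Single omissions gave 0.30 to 0.38 (0.2951 to 0.3756), and those of arrays 02, 04, 10, 12, 14 and 15 ended the call. Ptger3 between genotypes passed at 0.42 with array weights and at 0.54 without array 09, with single omissions from 0.39 to 0.54. Umod between durations passed at -0.27 with array weights, at -0.27 without arrays 09, 10, 19 and 20, and without array 07 or 19 singly (single omissions -0.25 to -0.18). Ptger3 between durations no longer passed at -0.51 in females, -0.30 in males, -0.37 with the run as a random block and -0.30 without arrays 05 to 08. Single omissions gave -0.47 to -0.32, and those of arrays 05, 06, 08, 09, 11, 13, 15, 16 and 17 ended that call. Egf between sexes passed at 0.40 at 5 days and at 0.25 without array 11 (single omissions 0.16 to 0.25). The sign of this Egf difference turned in 2 settings, with a lowest value of -0.04. Within a subset of arrays fewer samples were fitted. The cause of the other changes was not tested. Counts of all probe sets past the threshold moved by over 1.5 times as well. The 111 for genotype over both diets became 29 without terms for sex and days, 61 without arrays 05 to 08, 73 without arrays 09, 10, 19 and 20, 187 with array weights and 0 to 12 within 1 sex or duration, and 66 to 73 without array 02, 10, 12 or 13. The 16 for diet in normal mice ranged from 0 to 85. The 2785 for days became 1548 without terms for sex and days, 26 without arrays 05 to 08, 6 in males and 2 with the run as a random block. Listed genes were refitted without arrays 05 to 08 and with the run as a block, both chosen after seeing the data. The arrays' title numbers are not shared between groups, so arrays were paired by sex and days, or blocked by the run of title numbers. Signal over background cannot be given, since the table holds no background.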
